A study of Mus musculus with 4 samples.

Results

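Very long genes, taken as protein-coding genes whose RefSeq span reaches 500 kb or more, held 1354 of the 39231 regions at which captured DNA was lower in a tamoxifen library than in an oil library. A region was a member when its midpoint lay inside such a gene on chromosomes 1 to 19, where 38581 regions were listed. The rule used gene span and position only, and no measured level. It gave 216 genes, of which 209 (96.8%) held at least 1 region, against 43.3% of all protein-coding genes of these chromosomes. Overlapping gene records made 1391 pairs of region and gene, since 21 regions lay in more than 1 very long gene.

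The tamoxifen library came from satellite cells, which are muscle stem cells, of 9-week-old mice injected with tamoxifen on 5 consecutive days (150 µl of 20 mg/ml) to induce Cre recombinase and make the cells Uhrf1-deficient. The oil library came from control mice of the same age given oil. Cells of both groups were taken from hindlimb muscles and grown for 3 days on Matrigel, and an MBD2 kit separated their methylated from their non-methylated DNA. The series has 4 libraries, 1 for each treatment and DNA part, and the list compares 1 tamoxifen with 1 oil alignment, assumed here to be of the methylated part, since the file header does not say. The Cre driver and the full genotypes are not given in the sources used here, and a list of DNA regions does not allow a check of the cell type by expression. With 1 library per treatment no test between conditions was possible, and loss of Uhrf1, tamoxifen itself, the animals and the capture cannot be told apart as sources of a difference.

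Uhrf1 recognises hemimethylated DNA behind the replication fork and recruits the methyltransferase Dnmt1, which copies methylation to the new strand. The MBD2 protein binds methylated CpG, so captured DNA reports CpG density as well as methylation. Many very long genes encode synaptic adhesion proteins, ion channels and transcription factors, and their span is mostly intron. CpG-rich promoters are usually free of methylation, while gene bodies are usually methylated.

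After at most 1 tag per position was kept, the tamoxifen library had 25614791 tags and the oil library 19534328. The levels below are unscaled tags over a region's summit. The percentage kept is the tamoxifen signal, scaled by 0.763 to the oil library, over the oil signal. The limits beside it are exact 95% limits of the tag ratio, and those beside densities are exact Poisson limits. Both cover counting error only, treat regions as independent and say nothing of the spread between mice. Every listed region was lower in tamoxifen because the authors' caller was asked for that direction, so the loss itself is how the list was made. In 40 of the 1354 regions the tamoxifen library had 2 or fewer tags and the percentage kept is an upper value set by the caller's genome mean.

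Sequence was at hand only where a region overlapped a RefSeq start window or miRNA of GRCm38.p6, which has the primary assembly of mm10. These stretches are shown because they give the reference bases within listed regions, at annotated starts in or of very long genes. CpG pairs are in capitals.
Celf2, chr2:7395951-7396138, minus strand: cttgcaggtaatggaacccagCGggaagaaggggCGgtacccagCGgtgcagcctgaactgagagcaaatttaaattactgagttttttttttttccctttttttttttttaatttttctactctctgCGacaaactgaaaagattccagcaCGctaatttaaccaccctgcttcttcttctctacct
Sox6, chr7:116038714-116038914, minus strand: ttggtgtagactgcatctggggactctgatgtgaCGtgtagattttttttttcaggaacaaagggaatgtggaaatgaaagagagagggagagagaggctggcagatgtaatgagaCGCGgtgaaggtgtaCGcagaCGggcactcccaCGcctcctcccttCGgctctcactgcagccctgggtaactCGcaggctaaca
Kalrn, chr16:34513978-34514117, minus strand: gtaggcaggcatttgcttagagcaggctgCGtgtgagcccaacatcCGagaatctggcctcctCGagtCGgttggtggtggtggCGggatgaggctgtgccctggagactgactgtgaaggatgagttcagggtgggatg
Anks1b, chr10:90576452-90576655, plus strand: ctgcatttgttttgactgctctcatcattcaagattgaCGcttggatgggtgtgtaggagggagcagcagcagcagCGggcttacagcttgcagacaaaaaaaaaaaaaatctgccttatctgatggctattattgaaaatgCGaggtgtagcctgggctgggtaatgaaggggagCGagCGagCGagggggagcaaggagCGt
Etl4, chr2:20509797-20509905, plus strand: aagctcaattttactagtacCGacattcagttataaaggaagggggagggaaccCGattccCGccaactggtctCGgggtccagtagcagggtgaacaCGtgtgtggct
Pde1c, chr6:56369466-56369705, plus strand: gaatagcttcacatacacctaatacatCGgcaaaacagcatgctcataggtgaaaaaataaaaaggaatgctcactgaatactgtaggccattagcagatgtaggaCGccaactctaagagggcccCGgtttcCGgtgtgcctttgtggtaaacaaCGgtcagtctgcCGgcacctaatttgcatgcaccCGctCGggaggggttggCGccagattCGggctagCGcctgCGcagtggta
Galntl6, chr8:58700994-58701195, minus strand: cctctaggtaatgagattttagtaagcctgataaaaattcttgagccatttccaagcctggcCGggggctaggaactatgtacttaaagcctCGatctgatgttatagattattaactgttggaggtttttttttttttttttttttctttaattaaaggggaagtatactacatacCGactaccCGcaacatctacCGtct
Malrd1, chr2:16027641-16027856, minus strand: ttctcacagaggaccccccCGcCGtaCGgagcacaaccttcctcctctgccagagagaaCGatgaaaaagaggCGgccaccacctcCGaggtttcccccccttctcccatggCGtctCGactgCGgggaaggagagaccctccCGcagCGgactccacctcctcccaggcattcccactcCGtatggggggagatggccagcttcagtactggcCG
The first 6 lie at annotated starts of the named gene, and the Pde1c stretch is given from the facing lncRNA Gm34753. The last 2 lie at starts of Gm15881 inside Galntl6 and of Gm37416 inside Malrd1.

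The region at an annotated start of Celf2, which encodes a splicing regulator, had 11 tamoxifen tags against 38 oil tags and kept 22.1% (95% limits 10.2% to 44.1%) of the oil signal. That of Sox6, a repressor of slow muscle fibre genes, was thinly covered, with 5 tamoxifen tags against 18 oil tags and 21.2% (95% limits 6.15% to 59.2%) kept. The start of a shorter transcript of Kalrn, a guanine nucleotide exchange factor gene, had 11 tamoxifen tags against 46 oil tags. The stretches of Anks1b and Etl4 had 11 tamoxifen tags against 39 oil tags and 20 tamoxifen tags against 59 oil tags. The region inside Pde1c, a calcium-dependent phosphodiesterase gene, was deeper, with 34 tamoxifen tags against 89 oil tags and 29.1% (95% limits 19.02% to 43.7%) kept. All 6 kept between 18.2% and 29.1% of the oil signal, and their limits overlap one another. The Galntl6 region kept 15.4% (95% limits 9.58% to 23.8%), with 25 tamoxifen tags against 124 oil tags. The Malrd1 region lost least of all 1354, with 132 tamoxifen tags against 153 oil tags and 65.8% (95% limits 51.7% to 83.6%) kept. The stretches held 5 CpG (Celf2), 8 (Sox6), 5 (Kalrn), 7 (Anks1b), 5 (Etl4), 12 (Pde1c), 5 (Galntl6) and 13 (Malrd1).

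Few annotated starts of very long genes overlapped a region, although their share was above that of shorter genes. Start windows, from 250 bases before to 50 after an annotated start, were at hand for 169 of the 216 genes. Of their 271 windows, 6 (2.21%) overlapped a region, against 138 of 19814 windows (0.696%) of shorter protein-coding genes. Annotated starts include alternative starts inside a gene. Only the regions of Celf2 (0.365 kb) and Sox6 (1.96 kb) lay near the outer start of the gene. Those of Kalrn, Pde1c, Etl4 and Anks1b lay 59.3, 282.9, 599.5 and 703.6 kb from it. Outer and inner starts were not compared separately with those of shorter genes. The 6 windows held 6 to 11 CpG. Of the 87 windows of very long genes with 20 or more CpG none overlapped a region, against 13 of 7364 such windows of shorter genes. That absence is near the share in shorter genes and is no result about very long genes. The start windows of the densely covered genes Atrnl1 (41 CpG), Enox1 (42), Dock1 (34) and Camta1 (28) were among those without one. The list does not say whether a window without a region was methylated in either library.

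A region of Zfhx3, a homeodomain zinc finger transcription factor gene, lay over both mature products of the miRNA gene Mir3108, 24.6 kb from the end of Zfhx3. Their seeds, bases 2 to 8, are in capitals and differ between the arms.
mmu-miR-3108-5p, chr8:108936870-108936892, plus strand: gUCUCUAAagcuagacguuccgg
mmu-miR-3108-3p, chr8:108936911-108936931, plus strand: cGUCUAGGucuagagucucaa
The region (chromosome 8, 108936798 to 108937178) had 19 tamoxifen tags against 79 oil tags, and 18.3% (95% limits 10.5% to 30.6%) of the oil signal was kept. The RefSeq table places 26 miRNA hairpins, not counting Mir3108, inside 22 of the very long genes, and no member region overlapped another mature miRNA. The list says nothing of the miRNA's expression.

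Regions were sparse in very long genes for their length. Together these genes spanned 180.1 Mb and held 0.752 regions per 100 kb (95% limits 0.712 to 0.793). Shorter protein-coding genes held 2.69 per 100 kb (2.66 to 2.73), so that the density of very long genes was 27.9% of theirs. Sequence outside protein-coding and lncRNA genes held 1.03, and chromosomes 1 to 19 as a whole 1.58. Very long genes thus made up 7.38% of the annotated span of these chromosomes and held 3.51% of its regions.

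**Figure D1:**
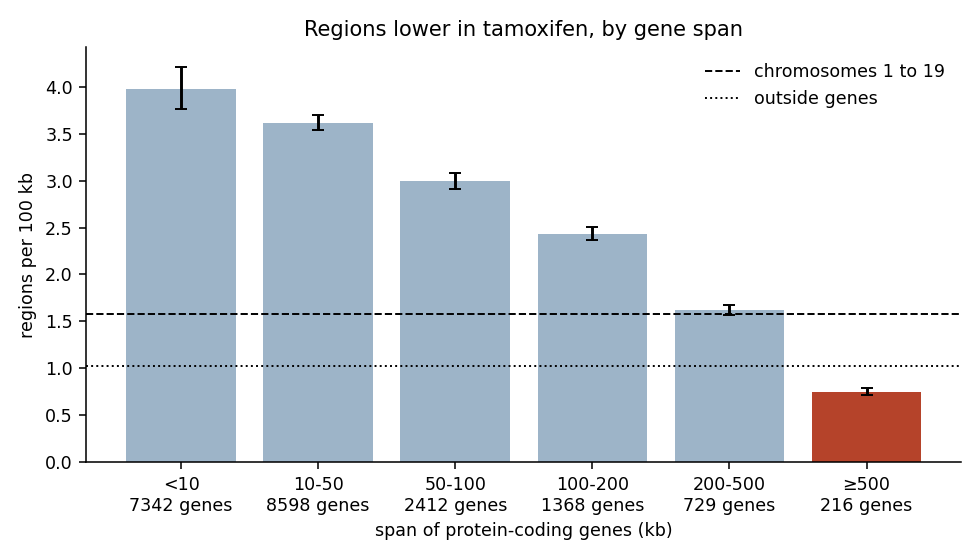
Regions per 100 kb (vertical axis) in protein-coding genes of chromosomes 1 to 19, by class of gene span in kb (horizontal axis), with the number of genes under each bar. Error bars are exact 95% Poisson limits for counting error; the dashed line is the density over chromosomes 1 to 19 (1.58) and the dotted line that outside protein-coding and lncRNA genes (1.03). The bars step down from 3.98 in the shortest genes to 0.752 in those of 500 kb or more, the only class under the dotted line.

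The density decreased at each step of gene span. It was 3.98 per 100 kb in genes under 10 kb, 3.62 from 10 to 50 kb, 2.99 from 50 to 100 kb, 2.43 from 100 to 200 kb, 1.62 from 200 to 500 kb and 0.752 above. The limits of neighbouring classes did not overlap. On either side of the 500 kb limit the bands were closer, with 0.945 in the 71 genes of 500 to 600 kb and 1.33 in the 122 genes of 400 to 500 kb. Among very long genes, the median density of the 55 genes of 1000 kb or more was 0.32, against 0.57 in the others. Just inside the limit lay Edil3 (501.8 kb, 1 region), Dock1 (503 kb, 16) and Samd12 (503 kb, 3), and just outside it Dnm3 (496 kb, 5), Lrrc7 (495 kb, 1) and Cacna1e (494 kb, 4).

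The same direction was seen on each of the 19 chromosomes. The density of very long genes over that of shorter protein-coding genes ran from 0.137 on chromosome 15 to 0.52 on chromosome 18, with a median of 0.266. Chromosome 8 had the highest density in very long genes, 1.52 per 100 kb over 17 genes, against 3.15 in its shorter genes. Chromosome 15 had the lowest, 0.454 over 7 genes, against 3.32. Of the 224 regions in very long genes of chromosome 8, 43 lay in Zfhx3, 44 in Wwox and 45 in Tenm3. As a share of genes the picture differs, because a longer gene has more sequence in which a region can lie. Of the 216 very long genes 209 (96.8%) held a region, against 8744 of 20449 shorter ones (42.8%).

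Captured signal in the regions themselves was close to that of the whole list. Over the 1354 regions the median was 14 tamoxifen tags (2 or fewer to 145) against 51 oil tags (14 to 251). The 39231 listed regions had the same medians, 14 and 51. The median percentage kept was 20.5% in very long genes (quartiles 15.4% and 26.4%), against 20.1% over the list (15.3% and 25.9%). The authors' deposited fold of oil over tamoxifen, which runs opposite to the percentage kept, was 4 or more in 861 members (63.6%) and in 66.1% of all listed regions. It was 10 or more in 28 members (2.07%) against 2.03% of all, and under 2 in 9 members (0.665%) against 0.663%. These shares are near the background of the list, which includes the members, and are no result about very long genes. Regions in shorter protein-coding genes had a fold of 4 or more in 69.1%, 10 or more in 2.11% and under 2 in 0.396%. Their median percentage kept was 19.6%, and their difference from the members was not tested. Members had a median length of 253 bp, against 259 bp over the list, and covered 0.387 Mb.

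**Figure D2:**
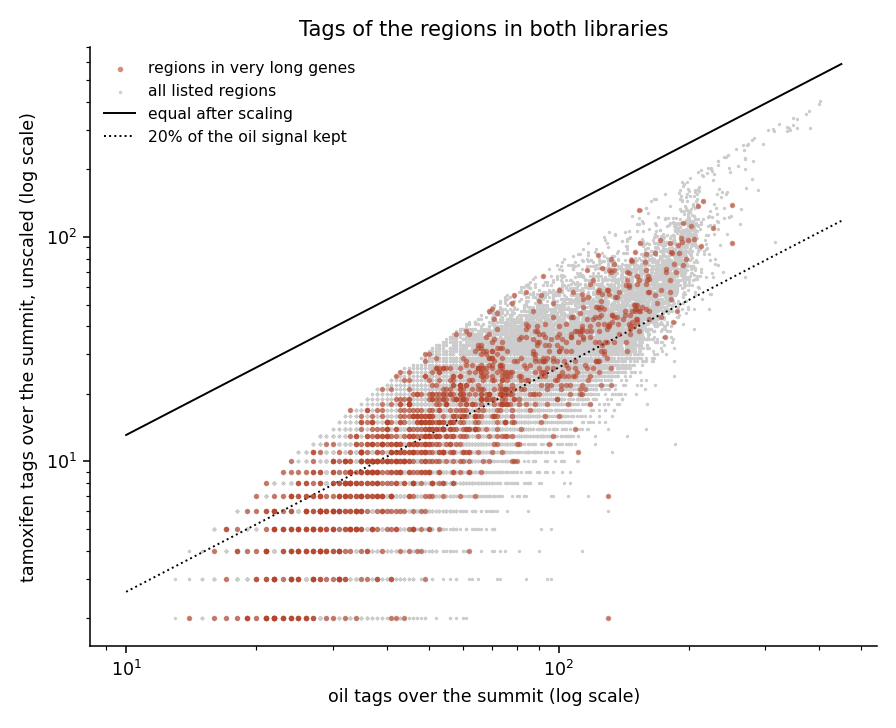
Unscaled tamoxifen tags over the summit (vertical axis, log scale) against oil tags (horizontal axis, log scale) for the 1354 regions in very long genes (red) and all 39231 listed regions (grey). The solid line marks equal signal after scaling and the dotted line 20% of the oil signal kept. The red points spread over much of the same area as the grey ones, on both sides of the dotted line; at 2 tamoxifen tags, points stand for 2 or fewer.

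Regions were unevenly shared among the genes. The median very long gene held 4 regions (quartiles 2 and 8) or 0.50 per 100 kb (0.26 and 1.07). The 10 densest genes held 297 regions (21.9% of members) in 3.88% of the summed gene span. The 108 genes of lowest density together held 256 (18.9%). At the top, 12 genes held 20 or more regions, while 94 held 1 to 3. Only 36 of the 216 genes were above the density of chromosomes 1 to 19, and 13 above that of shorter protein-coding genes.

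Zfhx3 (chromosome 8, 108279311 to 108961636) ranked first with 43 regions, 6.30 (95% limits 4.56 to 8.49) per 100 kb. Its regions had 2 or fewer to 110 tamoxifen tags (median 14) against 22 to 227 oil tags (median 54), with a median of 18.3% kept. The region of lowest percentage kept among all 1354 was here (chromosome 8, 108818853 to 108819501), with 2 or fewer tamoxifen tags against 130 oil tags and at most 1.62% kept. The longest stretch of Zfhx3 without a region was 68.4 kb, and 24 of the 43 regions lay in the last of 3 equal parts of the gene.

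Wwox (chromosome 8, 114439635 to 115352712), a WW domain oxidoreductase gene that spans a common fragile site in human, held 44 regions or 4.82 (95% limits 3.50 to 6.47) per 100 kb. They had a median of 12.5 tamoxifen tags against 51.5 oil tags and kept 7.38% to 49.8%. No stretch of Wwox over 67.5 kb was free of them. Foxp1 (chromosome 6, 98925342 to 99522746), a forkhead transcription factor gene, held 28, or 4.69 (95% limits 3.11 to 6.77). Its medians were 15.5 tamoxifen and 50 oil tags, and the lowest percentage kept was 4.67% (95% limits 0.931% to 14.5%), at 14.3 kb from the end of the gene (3 tamoxifen tags against 49 oil tags).

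Next came Grip1, which encodes a scaffold of glutamate receptors with 28 regions at 4.42 (95% limits 2.93 to 6.38), and Atrnl1, an attractin-like gene with 23 at 4.40 (95% limits 2.79 to 6.61). Smyd3, a lysine methyltransferase gene, held 22 at 3.89 (95% limits 2.44 to 5.88), and Camta1, a calmodulin-binding transcription activator gene, 30 at 3.74 (95% limits 2.52 to 5.34). Tenm3, a teneurin adhesion gene, had the most regions of any very long gene, 45, and a density of 3.47 (95% limits 2.53 to 4.64). Enox1 followed with 18 at 3.18 (95% limits 1.89 to 5.03) and Dock1, a Rac exchange factor gene needed for myoblast fusion, with 16 at 3.18 (95% limits 1.82 to 5.17). The limits of all 10 genes overlap those of Zfhx3, so the order within this group is not resolved by counting error. Median percentages kept in the 10 genes ran from 16.4% in Atrnl1 to 24.3% in Camta1. The deepest regions of all members by oil tags were in Camta1 (94 tamoxifen tags against 251 oil tags) and Dock1 (139 tamoxifen tags against 251 oil tags).

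At the other end, 7 very long genes held no region. They were Dpp10 (1514 kb), an auxiliary subunit gene of potassium channels, Ccser1 (1203 kb), the synaptic adhesion gene Lrrtm4 (791 kb), the contactin-associated gene Cntnap5b (718 kb), Fstl5 (636 kb), Skint5 (522 kb) and Car10 (505 kb). The upper 95% limits of a count of 0 ran from 0.244 per 100 kb in Dpp10 to 0.731 in Car10. The longest genes were thin as well. Ptprd, a receptor tyrosine phosphatase gene of 2271 kb, held 2 regions at 0.0881 (95% limits 0.0107 to 0.318) per 100 kb, one with 27 tamoxifen tags against 63 oil tags and the other with 11 tamoxifen tags against 56 oil tags. Cntnap2 (2241 kb) held 5, the adhesion gene Lsamp (2197 kb) 3, the lipoprotein receptor gene Lrp1b (2058 kb) 8 and Macrod2 (1998 kb) 7. The density of these 5 genes lay between 0.09 and 0.39 per 100 kb.

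**Figure D3:**
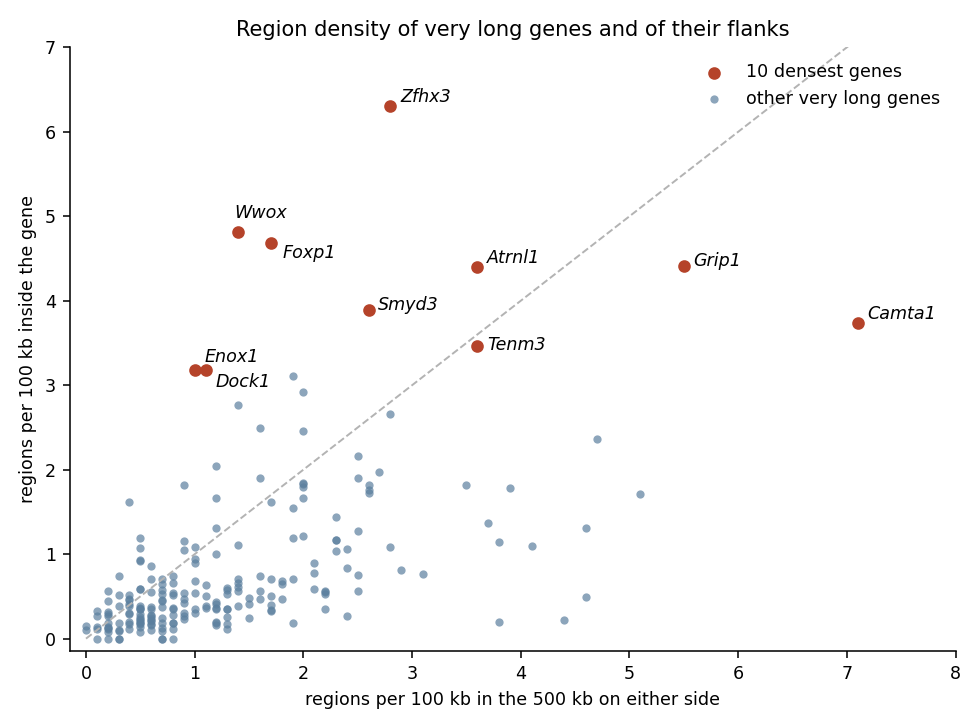
Regions per 100 kb inside each of the 216 very long genes (vertical axis) against regions per 100 kb in the 500 kb on either side of it (horizontal axis), 1 point per gene, with the 10 densest genes in red. The dashed line marks equal density; 168 points lie under it and 48 above. Zfhx3, Wwox and Foxp1 stand well above the line, and Grip1 and Camta1 below it.

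Very long genes were also sparser than their surroundings. The 500 kb on either side held 1.36 regions per 100 kb (95% limits 1.31 to 1.41), so that the genes had 55.3% of the density beside them. Outside protein-coding genes the same flanks held 0.948, and the genes then had 79.3% of it. Gene by gene, 168 of 216 were below their own flanks and 48 above. Among the 10 densest, Zfhx3 held 6.30 per 100 kb against 2.80 in its flanks, Wwox 4.82 against 1.40 and Foxp1 4.69 against 1.70. Grip1 (4.42 against 5.50), Camta1 (3.74 against 7.10) and Tenm3 (3.47 against 3.60) were below theirs. Over the 216 genes the Spearman correlation of a gene's density with that of its flanks was 0.63, with the number of protein-coding genes in or over its flanks 0.46, and with its span -0.22. These are descriptions of neighbouring sequence on shared chromosomes and in the same 2 libraries. CpG density, on which capture depends, was not measured along the genes, and its part in these densities was not tested.

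In genes of known strand, regions were concentrated towards the end of transcription. The strand was known for 169 genes, of which 162 held a region, in 1033 pairs of region and gene. The last 10% of the gene held 216 of these pairs (20.9%, exact 95% limits 18.5% to 23.5%) and the first 10% held 98 (9.49%, 7.77% to 11.4%). Of the 10 equal steps along the gene, step 3 held fewest, 73 (7.07%), and step 9 held 120 (11.6%). Of the 169 genes, 73 had more regions in the last 10% than in the first, 34 had fewer and 62 had the same number, mostly 0. In the other 47 genes (358 pairs), read from left to right without regard to strand, the leftmost 10% held 11.7% and the rightmost 11.2%. Whatever the strand, an excess at the ends of genes would lie in these outer steps. Both were near an even 10%, so little of the concentration was seen in these genes, which include Wwox, Smyd3, Cdh13 and Auts2.

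**Figure D4:**
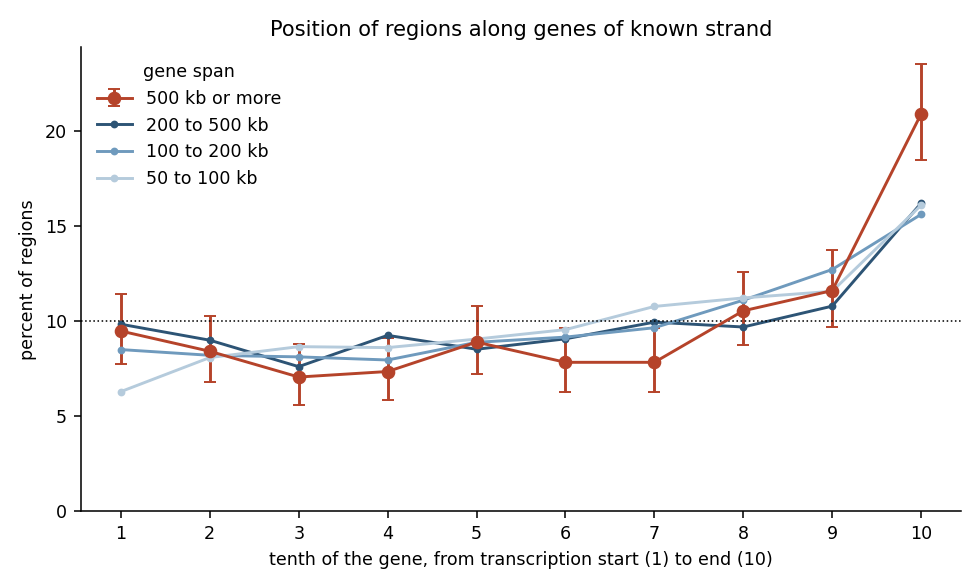
Percent of regions (vertical axis) in each 10% of the gene from transcription start to end (horizontal axis), for very long genes (red, with exact 95% binomial limits) and 3 shorter classes (blue). The dotted line is an even spread, 10% in each step. The red line ends at 20.9% in the last step, and the blue lines at 15.6% to 16.2%.

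Genes of 50 to 500 kb also had their highest share in the last 10%, at a lower level. The last 10% held 16.2% of regions in genes of 200 to 500 kb (95% limits 14.9% to 17.7%), 15.6% in those of 100 to 200 kb and 16.1% in those of 50 to 100 kb. It held 14.1% in genes of 10 to 50 kb and 10.2% (95% limits 8.34% to 12.3%) in those under 10 kb. The first 10% held 9.85% from 200 to 500 kb, 8.51% from 100 to 200 kb and 4.87% to 6.30% in the shorter classes. The same share is a longer stretch in a longer gene, and the difference between the classes was not tested. In absolute distance, the last 100 kb of the 169 genes held 1.45 regions per 100 kb, the first 100 kb 0.787 and the sequence between them 0.61. The 100 kb beyond the end held 1.31 and the 100 kb before the start 1.09. Counted as pairs, 46 lay within 10 kb of the end in 38 genes, and 14 within 10 kb of the start in 14 genes. Within 2 kb the counts were 12 and 2. Signal did not follow the same profile, since regions of the last 10% had a median of 21.0% kept and the others 20.5%. Of the regions in the last 10% of the gene 12.5% also lay inside another protein-coding or lncRNA gene, against 6.73% of the others.

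Single genes showed this to different degrees. Tenm3 held none of its 45 regions in its first 415 kb and 14 in the last 10%, and 34 lay in the last of 3 equal parts. Robo1, an axon guidance receptor gene of 1020.0 kb, held none of its 11 regions in the first 562 kb and 6 in the last 10%. These 6 lay between 43.5 and 76.7 kb from the end and had 5 to 29 tamoxifen tags against 23 to 80 oil tags. Cntnap2 was free of regions over its first 1922 kb, and its 5 regions lay in the remaining part, from 8 tamoxifen tags against 42 oil tags to 48 tamoxifen tags against 152 oil tags. Pde4d, a cAMP phosphodiesterase gene, held 15 of 21 regions in the last of 3 equal parts, with none in its first 395 kb. Atrnl1 went the other way, with 12 of 23 regions in the first of 3 equal parts and none in the last 10%. Dock1 likewise had 8 of 16 in the first part, but 3 in each outer 10% of the gene. Ctnna3, a catenin gene, had 7 of 12 regions in the first 10% and none in the last. Sox5 had 7 of 17 in the first 10% and 2 in the last. Foxp1 had 9, 7 and 12 regions in the 3 parts, with 7 in the last 10% of the gene and 1 in the first 10%. Camta1 had 9, 10 and 11 in the 3 parts, with 6 in the last 10% and 1 in the first 10%.

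**Figure D5:**
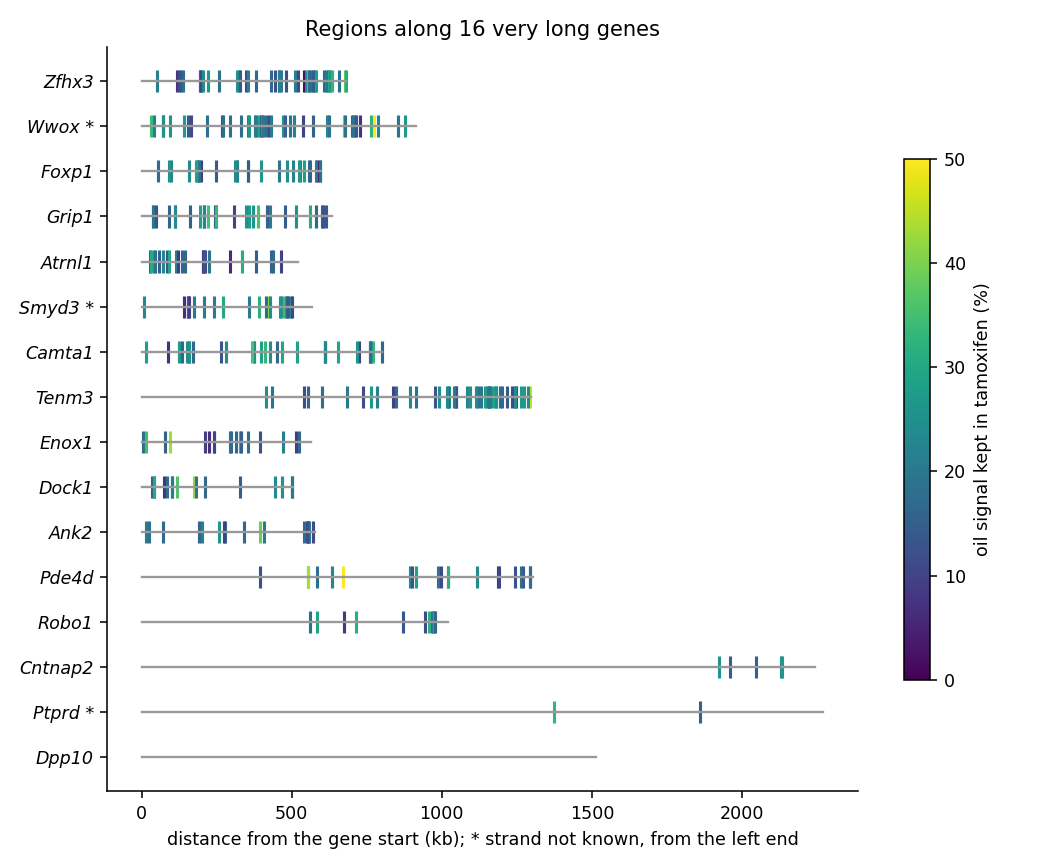
Each row is 1 gene drawn to scale from its start (horizontal axis, kb; genes with an asterisk have no known strand and run from the left end), and each tick is 1 region, coloured by the percentage of the oil signal kept in tamoxifen. The 10 densest genes come first, then Ank2, Pde4d, Robo1, Cntnap2, Ptprd and Dpp10. Ticks cover Zfhx3 and Wwox from end to end, crowd to the right in Tenm3, Robo1 and Cntnap2, and are absent from Dpp10.

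Close to the ends, the regions over the last 2 kb included several with deep oil signal. Tenm2, a teneurin gene, had 48 tamoxifen tags against 159 oil tags at 0.96 kb from its end, and Foxp1 had 44 tamoxifen tags against 136 oil tags at 1.69 kb. Ctnnd2, which encodes delta-catenin, had a pair of regions there, with 16 tamoxifen tags against 78 oil tags and 20 tamoxifen tags against 59 oil tags. The neuron navigator gene Nav2 had 5 tamoxifen tags against 46 oil tags and kept 8.29% (95% limits 2.57% to 20.8%). Npas3, a transcription factor gene of the PAS family, had 3 tamoxifen tags against 30 oil tags and kept 7.63% (95% limits 1.49% to 24.5%). Zfhx3 (12 tamoxifen tags against 30 oil tags) and Dock1 (15 tamoxifen tags against 57 oil tags) had one each. The 12 pairs of region and gene, of 11 genes, kept 7.63% to 31.1%; Iqschfp and Schip1 share one region.

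Of the lists drawn up by function, that of 15 transcription factor and chromatin genes had the highest density. It held 205 regions or 1.95 per 100 kb (95% limits 1.69 to 2.23), and its median gene had 1.78, against 0.50 over all 216 genes. Each of the 15 held a region, as did 96.8% of all very long genes. The list is not complete, and with Npas3 (1.82), L3mbtl4 (0.20) and Zfp804b (0.17) added, its 18 genes held 1.78 per 100 kb with a median gene of 1.26. Without Zfhx3 the 14 others held 1.64. Of the 15, 8 were among the 54 densest very long genes. Besides Zfhx3, Foxp1, Smyd3 and Camta1 the list included the nuclear receptor gene Rora (2.04 per 100 kb), Auts2 (1.90) and the Sox gene Sox5 (1.78), while Foxp2 (0.18, 1 region) was the lowest. The groups were drawn up with earlier results of these data known, and no test of a group was made.

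Auts2 (chromosome 5, 131437333 to 132543220), whose protein acts with Polycomb complexes, held 21 regions, 18 of them in the leftmost of 3 equal parts. Among them was the second lowest percentage kept of all members, 4.11% (95% limits 1.62% to 8.70%), at chromosome 5, 131548878 to 131549344, with 7 tamoxifen tags against 130 oil tags. Another, in the middle of the gene (chromosome 5, 131941323 to 131941601), had 2 or fewer tamoxifen tags against 44 oil tags. Regions of Dlg2, a synaptic scaffold gene, and Pard3, a cell polarity gene, were also among the strongest, with 4 tamoxifen tags against 62 oil tags and 2 or fewer against 42. The weakest differences after Malrd1 were in Syt1, the synaptotagmin gene of synaptic vesicles (67 tamoxifen against 92 oil tags, 55.5% kept), and Csmd1 (55 against 79, 53.1%). These 3 regions of high percentage kept had 55 or more tamoxifen tags each. A small difference passes the caller's q limit only where tags are many, so this depth follows from how the list was made.

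The sparsest groups were those of neurotransmitter receptors, axon guidance, receptor tyrosine phosphatases, adhesion and ion channels. Of 38 synaptic and neuronal adhesion genes 35 held a region, against 209 of all 216, with 0.543 per 100 kb together and a median of 0.31. They ran from Tenm3 (3.47) to Fstl5, Lrrtm4 and Cntnap5b with none, and 7 of the 38 were among the 54 densest genes. The 8 axon guidance genes held 0.466, from Robo1 (1.08) to Robo2 (0.13). The 7 neurotransmitter receptor genes held 0.355, from the glutamate receptor gene Grid1 (0.65) to Grm7 (0.11), and none was among the 54 densest. Receptor tyrosine phosphatase genes (6) held 0.525, from Ptprm (1.31) to Ptprd (0.09), and ion channel genes (13) 0.556, from the calcium channel gene Cacna1c (2.46) to Dpp10 with none. The pooled density of all very long genes, 0.752, lay between these groups and the transcription factor list.

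The remaining groups lay between 0.604 and 1.21 per 100 kb. Phosphodiesterase genes (3) held 1.21 per 100 kb, from Pde4d (1.61) to Pde4b (0.58). A list of 19 cytoskeleton and muscle genes, which also takes in the receptor scaffold gene Grip1, held 1.03. It ran from Grip1 (4.42), followed by Dock1 (3.18), to Agbl1 (0.11). Dock1, Ank2, Syne1, Elmo1, Sgcd and Sgcz are in this list and also in the list of known roles in muscle below, so the densities of these lists are not independent. Kinase genes (7) held 0.973, from Mast4 (2.49) to Dgkb (0.13). A list of 18 genes drawn up around common fragile sites, which leaves out the 3 longest genes, held 0.812, from Wwox (4.82) to Immp2l (0.11), with a median gene of 0.48. Cadherin genes (6) held 0.684, from Cdh13 (2.36) to Pcdh9 (0.11). Genes of the extracellular matrix and signalling (9) held 0.66, from Thsd4 (2.16) to Adamtsl1 (0.11), and RNA-binding genes (4) 0.604, from Rbms3 (1.04) to Khdrbs2 (0.19). In all, 145 of the 216 genes were in a group and 71 in none.

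The 14 very long genes listed for known roles in muscle held 94 regions, 1.01 per 100 kb (95% limits 0.815 to 1.23), with a median gene of 0.69, against 0.50 over all 216. Each held a region, as did 96.8% of all very long genes. Pooled, all very long genes held 0.752 per 100 kb. Of the 94 regions, 16 lay in Dock1, 18 in Ank2 and 15 in Cacna1c. After Dock1 came Ank2, an ankyrin gene, with 18 regions and a median of 13 tamoxifen against 50.5 oil tags, and Cacna1c with 15 (12 against 46). Ppargc1a, which encodes a coactivator of mitochondrial genes, held 11, with 5 to 33 tamoxifen tags against 24 to 95 oil tags. The one nearest its end (chromosome 5, 51463127 to 51463397) had 7 tamoxifen tags against 59 oil tags and kept 9.05% (95% limits 3.49% to 19.8%). Syne1, which encodes a nuclear envelope protein, held 5 (median 12 tamoxifen against 46 oil tags).

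Others held few. Sox6 held 4 regions, with 2 or fewer to 16 tamoxifen tags against 18 to 50 oil tags. The calcium release channel gene Ryr3 held 4 (5 to 37 against 41 to 138 tags) and Ryr2 only 1 (31 against 104). Elmo1, the partner of Dock1 in Rac activation, held 3, and Lama2, which encodes a laminin of the muscle basement membrane, 3 (3 to 56 against 28 to 131 tags). Hdac9, a deacetylase gene whose product binds Mef2 factors, held 2. The sarcoglycan genes Sgcd and Sgcz held 3 each. In Sgcd, 23 tamoxifen tags against 50 oil tags, 71 against 116 and 30 against 49 left 35.1%, 46.7% and 46.7% of the oil signal. All 3 were above the third quartile of the list (25.9%). The Sgcz regions kept 19.1% to 29.9%. Leaving Dock1, Ank2 and Cacna1c aside, each of these genes had under 2 regions per 100 kb. So had most very long genes, since of all 216 rank 19 held 2.04 and rank 20 held 1.97. The value is therefore no result about muscle genes.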

How the data were processed

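The authors deposited 1 list of regions. The submitters' processing notes name HISAT2, Trim Galore and mm10. Going by the command line, per the file headers, MACS 2.2.6 took the oil alignment as treatment and the tamoxifen alignment as control, kept 1 tag per position, extended tags to 201 bp, scaled the larger library down and used a q limit of 1e-04. The deposited pileup is a signal, the oil tags over the summit. The deposited fold is the ratio of oil plus 1 to scaled tamoxifen plus 1. The deposited -log10 p and q values had lost their headings and were read from their place and range. Tamoxifen tags were computed from pileup and fold and were whole within 0.02 tags in 97.5% of regions. The remaining 980 regions had 2 or fewer tags.

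Regions were assigned by midpoint to RefSeq genes of GRCm38.p6. Strand came from the RefSeq start windows (169 of 216 genes matched). Work was done in Python 3.11.15 with scipy 1.17.1, and the counting code was tested on simulated regions. The genes named were the 10 densest, the 5 with most regions, the 5 longest, those without regions, those with extreme regions and the extremes of each group. Genes at sequences, gene ends and in muscle, and Car10, Ctnna3, L3mbtl4, Pard3, Zfp804b, Rora, Auts2 and Sox5, were added after their values were seen. The members and lists were chosen with earlier results of these data known. The alternatives concern the q limit, span limit, assignment, joining, scaling, flanks and weighting. Regions higher in tamoxifen and the non-methylated libraries were not analysed here, and the values of 1 gene of the muscle list are not reported here.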

Additional observations from a re-analysis of the deposited data

How the results depend on the processing

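Of 44 alternative values computed for 9 results, 32 stayed within the counting limits (for counts, within 1.5 times). A change of direction was looked for only in the density ratios against shorter genes and against the flanks, and none of those alternatives changed direction. The other results were marked only as unchanged or moved. Very long genes held 0.625 regions per 100 kb at a q limit of 1e-10. With a span limit of 400 kb, at which further genes enter, there were 2070 regions (0.884 per 100 kb). With 1000 kb, at which 55 genes remain, there were 372 (0.508). Their density over that of shorter protein-coding genes, 0.279, was 0.227 without the 10 densest. Over the sequence beside them, 0.553, it was 0.605 with 200 kb flanks and 0.793 outside protein-coding genes. The first 10% of the gene held 11.6% of regions when each gene had equal weight, and the last 10% stayed between 19.1% and 20.6%. With 9.49% in the main setting and 9.67% to 11.6% in the alternatives, the first 10% lay on both sides of an even 10%. In 5 equal parts the last held 32.5% and the first 17.9%. The median percentage kept was 26.9% with unscaled tamoxifen tags and 19.3% at a q limit of 1e-10. Of the 10 densest genes, 8 stayed at that limit (Tenm3 and Dock1 gave way to Ank2 and Pard3), 10 with regions under 1 kb apart joined and 9 by covered length. The median density per gene, planned as an alternative, gives no ratio and is not among the 44. It turned the order: it was 0.50 in very long genes and 0 in shorter ones, most of which hold no region. The means were 0.84 and 3.55. Leaving out a replicate was not possible with 1 library per treatment. No paired analysis was possible because each group has 1 library. Depth limits single regions most where tamoxifen tags are 2 or fewer.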

Other observations

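The clustered protocadherin genes on chromosome 18 entered the very long genes through 3 overlapping RefSeq records, Gm37013, Gm38666 and Gm38667, that share the same 16 regions. The region at their common right end (chromosome 18, 37841560 to 37841875) had 3 tamoxifen tags against 41 oil tags and kept 5.58% (95% limits 1.11% to 17.5%). Another (chromosome 18, 37171265 to 37171497) had 4 tamoxifen tags against 47 oil tags and kept 6.49% (95% limits 1.70% to 17.8%). By contrast, the region with the most tamoxifen tags of all members was in the same cluster (chromosome 18, 37521655 to 37521921), with 145 tamoxifen tags against 215 oil tags and 51.4% (95% limits 41.4% to 63.8%) kept. Without these records 1338 regions remained and the density of very long genes was 0.747 per 100 kb.

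The longest single member, 878 bp, lay in the neural adhesion gene Ntm, with 30 tamoxifen tags against 68 oil tags. In 44 genes with 10 or more regions, the densest 100 kb held a median of 36.0% of the gene's regions. The longest stretch without a region had a median of 397 kb over the 216 genes.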
